A study of Mus musculus with 617 samples.

Results

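The Hedgehog pathway was followed by 7 of its genes (7 of the 43628 gene IDs in each table) through 617 single mouse cells of 13 groups: the ligand Shh, the receptor Ptch1, the signal transducer Smo, the transcription factors Gli1, Gli2 and Gli3, and the inhibitor Hhip. The members were taken by symbol, by a rule that names no measured value, though the set was proposed with earlier results of these data known. Each symbol matched 1 Ensembl ID in all 4 tables of FPKM (fragments per kilobase of transcript). How the authors scaled these values is not given in the sources used here. The cultures came from 2 embryonic stem (ES) lines, 1 female and 1 male, whose mothers were C57BL/6J and fathers CAST/EiJ. ES cells were kept in 2i and LIF (2 kinase inhibitors with leukaemia inhibitory factor; 60 female and 51 male cells) or in serum and LIF (68 and 52 cells). Epi cells (epiblast-like stem cells) were derived from the same lines with Activin A and FGF2 (79 and 63 cells), and a female Epi culture of 7 passages (41 cells) was tabulated separately. Motor neuron cultures (39 and 35 cells) were made through embryoid bodies exposed to retinoic acid and SAG, an agonist of Smoothened, and by the protocol they also yield interneurons. The embryo groups were inner cell mass at embryonic day 3.5 (E3.5, 23 cells) and epiblast at E4.5 (23 cells), both of the same cross as the lines, and E5.5 epiblast of C57BL/6J parents (20 female and 63 male cells). SAG was given only in the motor neuron protocol, together with retinoic acid, so the effects of SAG, retinoic acid and neural differentiation cannot be told apart.

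In the Hedgehog pathway a secreted ligand binds Patched, which otherwise holds Smoothened inactive, and active Smoothened at the primary cilium then shifts the Gli factors from repressors to activators. Gli2 is known mainly as an activator and Gli3 mainly as a repressor, whereas Gli1, Ptch1 and Hhip are textbook target genes whose RNA is read as a sign of signalling, the last 2 acting as feedback inhibitors. In the ventral spinal cord Shh from the notochord and floor plate sets the progenitor domains from which motor neurons arise, and in culture SAG stands in for it by acting directly on Smoothened.

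The members are protein-coding genes, placed here by GENCODE vM21 on GRCm38 (mm10). Shh lies at chr5:28456815-28467256 on the minus strand, Ptch1 at chr13:63508328-63573598 on the minus strand and Smo at chr6:29735503-29761365 on the plus strand. Gli1 lies at chr10:127329882-127341974 (minus), Gli2 at chr1:118834132-119053619 (minus), Gli3 at chr13:15463235-15730026 (plus) and Hhip at chr8:79965851-80058006 (minus). RefSeq windows of 250 bases before the start site (GRCm38.p6) were matched for 5 members (Ptch1, Smo, Gli2, Gli3 and Hhip). They were searched on both strands for the 9-letter consensus bound by Gli factors, GACCACCCA (reverse complement TGGGTGGTC), and for GACCNCCCA, which contains it. None of the 5 member windows held either motif, against 0.253% and 0.977% of all 32851 windows. At such rates 5 windows are too few for their lack of a match to tell anything. The windows of Ptch1 (chr13:63565736-63565985) and Gli3 (chr13:15463473-15463722) lie inside the GENCODE spans given above. The Gli3 window overlaps 1 annotated exon. Among 43 windows of 37 other pathway genes, 1 held the looser motif, 66 bases before a start site of Foxa2, a floor plate and endoderm factor. The Gli2 window (chr1:119053620-119053869, minus strand) is shown because Gli2 had the largest estimated change of the members tested in the motor neuron cultures, and the stretch at Foxa2 (chr2:148045512-148045540, minus strand) because Foxa2 had the largest change among the other pathway genes. Both are from RefSeq, 5′ to 3′, and capitals mark the match to the looser motif. A match describes the letters only.
Gli2: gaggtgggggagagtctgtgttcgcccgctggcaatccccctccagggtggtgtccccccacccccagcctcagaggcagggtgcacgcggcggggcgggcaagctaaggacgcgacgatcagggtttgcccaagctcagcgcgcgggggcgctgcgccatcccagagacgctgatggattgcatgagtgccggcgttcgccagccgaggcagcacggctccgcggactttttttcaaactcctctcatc
Foxa2: tggggaggggTGGGAGGTCggctggcgag

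Libraries were made by SMART-seq2 with Tn5, and the depth of each cell is unknown without read counts. Genes at 1 FPKM or more numbered, as group medians, 8122 (E3.5) to 10839.5 (female E5.5), with 9313 and 9234 in the female and male motor neuron cultures. The median FPKM sum per cell was 1332430 and 1478620 in the motor neuron cultures against 793153 to 961113 in the other cultures of the same table, and the tests below were repeated after scaling it out. Neuron markers were at a mean of 1 FPKM or more for 8 of 8 genes in both motor neuron cultures, and motor neuron markers for 5 of 7, with Lhx3 under 0.1 in both. Summed motor neuron markers averaged 167.5 and 366.6 FPKM in these cultures and 0.459 to 5.19 in the 6 others of the table. The Epi cultures were unlike each other in pluripotency markers. These summed to 5324 FPKM in the first female Epi culture, within the 3643 to 6095 of the ES cultures. In male Epi they summed to 755 FPKM and in the 7-passage female Epi culture to 709. At least 4 of 9 endoderm markers were at 1 FPKM or more in 13 of 39 female and 25 of 35 male motor neuron cells. The same held for all 20 female and all 63 male cells labelled E5.5 epiblast, whose summed endoderm markers averaged 2705 and 768 FPKM, beside pluripotency markers in all of them. These mixtures touch every level below, and in a culture mean fewer cells of a type and less RNA per cell cannot be told apart.

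The ligand Shh was rare everywhere. Mean levels in the motor neuron cultures were 1.49 (female) and 0.650 FPKM (male), against 0 to 0.170 FPKM in the 6 other cultures of that table. The groups did not overlap, but only 4 of 39 and 4 of 35 motor neuron cells reached 1 FPKM (10.3%, exact 95% interval 2.87 to 24.2%, and 11.4%, 3.20 to 26.7%). One female cell at 36.4 FPKM carried 62.4% of that culture's Shh, and without it the mean was 0.577 FPKM. The 7-passage Epi culture had 0.230 FPKM, and the embryo groups were all listed at 0. The largest of them, 63 male E5.5 cells, allows a share of up to 5.69% of cells (exact 95% upper limit).

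The receptor Ptch1 was the member present most evenly. Its culture means were 5.42 (female) and 4.82 (male) FPKM in 2i, 4.14 and 5.53 in serum, 7.83 and 1.95 in Epi, and 7.86 and 5.47 in the motor neuron cultures. Motor neuron cultures ranked first by the mean of both lines (6.67 ± 1.69 FPKM, SD, n = 2), but their range overlapped those of serum and Epi, and the other 3 states lay between 4.84 and 5.12 FPKM. The male Epi culture was the lowest of the table, and the separately tabulated 7-passage female Epi culture was low as well, at 2.57 FPKM. The share of cells at 1 FPKM or more lay within the range of the other states: 28 of 39 and 21 of 35 motor neuron cells, against 55 of 60 and 46 of 51 in 2i, 52 of 68 and 43 of 52 in serum, and 68 of 79 and 25 of 63 in Epi. Over the cells at 1 FPKM or more, Ptch1 averaged 10.9 and 8.84 FPKM in the motor neuron cultures, 9.06 and 4.75 in Epi, and 5.31 to 6.65 in the 4 ES cultures. The first female Epi culture, made without SAG, lay between the 2 motor neuron cultures on this measure, while the 7-passage one was at 4.23 FPKM. These levels were not rescaled for the higher FPKM sums of motor neuron cells given above.

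Hhip, a membrane and secreted protein that binds Hedgehog ligands, was low in all cultures. Its means were 0.925 (female) and 0.821 (male) FPKM in the motor neuron cultures, against 0.0639 to 0.480 in the 6 others. The groups did not overlap, yet the male value came from 1 cell of 35 at 28.7 FPKM, and the culture was listed at 0 without it. In the female culture 5 of 39 cells reached 1 FPKM. Cell titles run in 2 blocks of numbers in 7 of the 8 cultures, which the labels do not explain, and within either block the groups overlapped: the male motor neuron culture was at 0 in the lower block and the female one at 0.435 in the higher. The 7-passage Epi culture, made without SAG, was as high at 0.956 FPKM.

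Smo, the transducer on which SAG acts, differed widely between the 2 motor neuron cultures. Its means were 0.320 and 0.290 FPKM in 2i, 1.21 and 1.87 in serum, 2.44 and 6.84 in Epi, and 4.89 (female) and 0.647 (male) in the motor neuron cultures. The ranges of 2i, serum and Epi did not overlap, and the motor neuron range reached into those of serum and Epi. The gap between 2i and serum did not hold in the lower title block: male serum cells averaged 0.151 FPKM in the lower block (13 cells) and 2.45 in the higher (39 cells), and 2i cells of the lower block 0.365 and 0.414. The share of cells with Smo followed the same order, from 6 of 60 and 8 of 51 cells in 2i to 48 of 79 and 59 of 63 in Epi. In the male motor neuron culture only 5 of 35 cells had Smo (14.3%, 4.81 to 30.3%), against 23 of 39 in the female one.

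**Figure D1:**
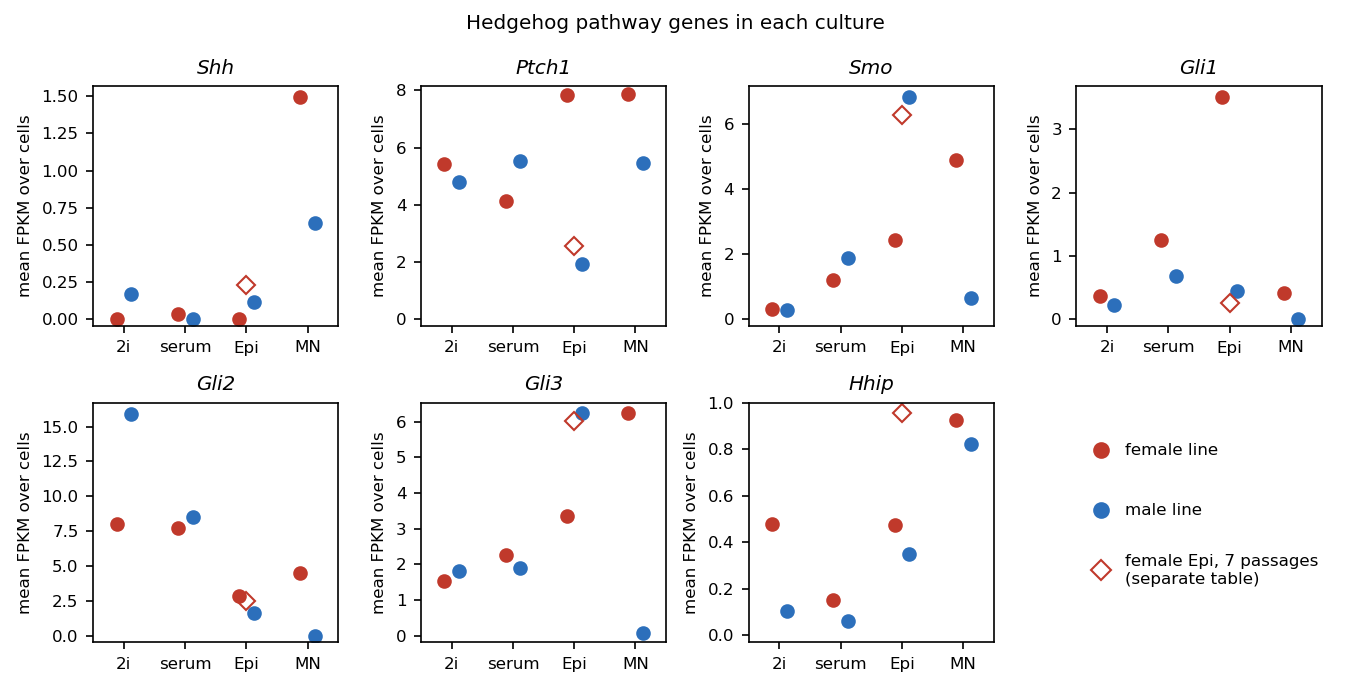
Mean FPKM over the cells of each culture (vertical axis, linear, own scale for each gene) for the 4 states (horizontal axis), with red points for the female line, blue points for the male line and an open diamond for the separately tabulated 7-passage Epi culture. The 2 motor neuron points lie far apart for Smo, Gli2 and Gli3 (6.23 against 0.0741 FPKM for Gli3), and above all other cultures of their table for Shh and Hhip.

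Gli1, the most direct reporter of pathway activity among the members, had its lowest mean of both lines in the SAG cultures (0.207 FPKM). It averaged 0.414 FPKM in female motor neuron cells and was listed at 0 in all 35 male ones, which allows up to 10.0% of cells. Means elsewhere were 0.364 and 0.232 FPKM in 2i, 1.24 and 0.683 in serum, and 3.51 (female) and 0.452 (male) in Epi. The first female Epi culture stood highest, with 38 of 79 cells at 1 FPKM or more, and the motor neuron range overlapped that of 2i alone. The separately tabulated 7-passage female Epi culture did not share this level. Its Gli1 mean was 0.262 FPKM, with 3 of 41 cells at 1 FPKM or more. In the higher title block the female motor neuron cells were at 0.882 FPKM, within the ranges of serum and Epi, and in the lower block at 0.0526. Only 2 of 39 female motor neuron cells reached 1 FPKM.

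Gli2, the main activator, was highest in ES cells. Its means were 8.03 and 15.9 FPKM in 2i, 7.76 and 8.51 in serum, 2.86 and 1.61 in Epi, and 4.51 (female) and 0 (male) in the motor neuron cultures. The ranges of 2i and serum overlapped, as did those of motor neuron and Epi cultures, while serum lay above both motor neuron values. The title blocks differed here too, with 20.1 and 4.65 FPKM in male serum cells and 26.03 and 8.27 in male 2i cells of the lower and higher block. Gli2 reached 1 FPKM in 98.3% and 92.2% of 2i cells, in 11 of 39 female motor neuron cells (28.2%, 15.0 to 44.9%) and in 0 of 35 male ones (up to 10.0%).

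Gli3, the main repressor, ran the other way across the untreated states. Its means were 1.52 and 1.81 FPKM in 2i, 2.26 and 1.89 in serum, and 3.34 and 6.23 in Epi, with no overlap between these states, although in the higher title block 2i (1.97 and 2.38) overlapped serum (2.26 and 1.55). The motor neuron cultures lay at both ends, with 6.23 (female) and 0.0741 FPKM (male). Cells at 1 FPKM or more numbered 19 of 39 and 2 of 35.

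**Figure D2:**
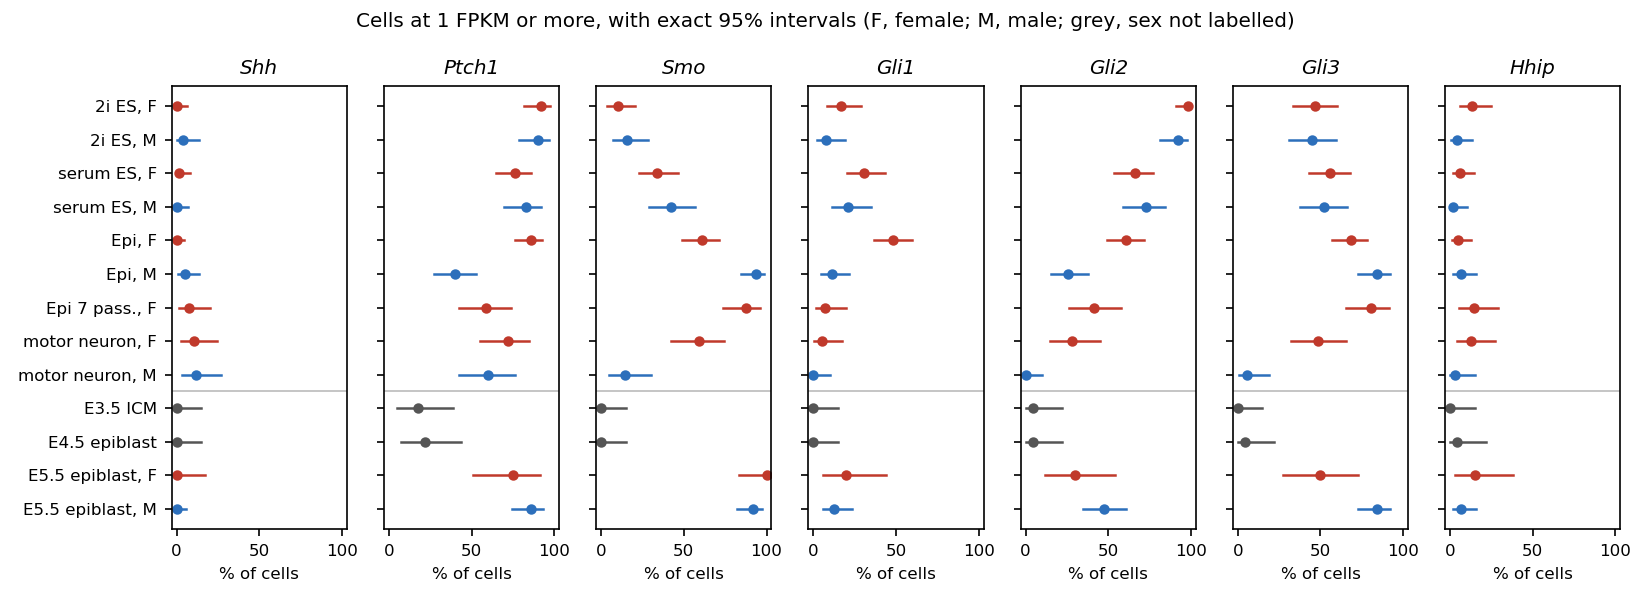
Percent of cells at 1 FPKM or more (horizontal axis) in each of the 13 groups (vertical axis), with points for the share and lines for exact 95% binomial intervals, which cover counting error only (red female, blue male, grey without a labelled sex). Ptch1 is present in most cells of every culture except male Epi (39.7%), and Smo, Gli2 and Gli3 are near the bottom of the scale in male motor neuron cells.

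The first comparison asked whether the members differed between the motor neuron cultures and the mean of 2i, serum and Epi. Culture means were tested on the log2(mean FPKM + 1) scale in 1 limma fit of 8 cultures, so that n is 2 cultures per state, with calls made where p, adjusted by Benjamini-Hochberg, was under 0.05 and the log2 change at least 1 in size. Of the 7 members, 4 passed the filter of a mean of 1 FPKM over the cultures (Ptch1, Smo, Gli2 and Gli3), and 0 of these 4 were called. Over all 15504 genes tested 35.5% were called (31.9% higher and 3.57% lower), and the median change of all genes was 0.64. Gli2 changed by -1.60 (SE 0.65, 95% interval -3.15 to -0.04, limma p = 0.0456, adjusted p = 0.0896), and it was the 1 member at an unadjusted p under 0.05, which 8065 of the 15504 genes reached. The estimates for the receptor and the transducer were nearer to 0. Ptch1 changed by 0.42 (SE 0.43, -0.62 to 1.47, adjusted p = 0.461). Smo changed by 0.28 (SE 0.56, -1.07 to 1.62, adjusted p = 0.705). Gli3 changed by -0.36 (SE 0.69, -2.02 to 1.29, adjusted p = 0.687). All 4 estimates lay below the median of all genes, and the intervals do not show that the genes stayed the same.

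The estimates depended on how the cells were scaled. The median change of all genes was 0.04 after each cell was rescaled to the same sum, 0.13 with the mean of log2 values over cells and -0.39 after upper-quartile scaling, and 66.4%, 68.5% and 39.1% of the called genes were then higher, against 89.95% as first fitted. Ptch1 turned to -0.14 and Smo to -0.10 after rescaling, and to -0.54 and -0.32 after upper-quartile scaling. Gli2 was lower in every alternative, from -0.36 to -3.13. It was called with the mean of log2 values (-1.63, adjusted p = 0.0184) and after upper-quartile scaling (-2.14, adjusted p = 0.0351). Its size rested mostly on the male motor neuron culture, which was listed at 0. As first fitted, Gli2 changed by -0.29 in the female and -2.90 in the male line. The estimate was -2.83 without the female motor neuron culture and -0.36 without the male one. Gli3 stood at -1.74 without the female motor neuron culture and at 1.01 without the male one.

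Shh, Gli1 and Hhip did not pass the filter and were tested only with all 33861 genes that had a value above 0 in any culture, of which 14.5% were called and 6434 had an adjusted p under 0.05 at any size. There Shh changed by 0.95 (SE 0.17, adjusted p = 0.0186) and Hhip by 0.57 (SE 0.14, adjusted p = 0.0440), both under the log2 change of 1 that a call needed. Gli1 changed by -0.65 (SE 0.46, adjusted p = 0.418). On this scale the change of genes below 1 FPKM is understated.

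Against serum alone, 0 of 4 members were called, beside 32.8% of all genes (30.1% higher and 2.70% lower), and 1 had an unadjusted p under 0.05, as did 7383 of the 15504 genes. Gli2 was nearest, at -1.96 (SE 0.79, limma adjusted p = 0.0978), and Ptch1, Smo and Gli3 lay between -0.14 and 0.39. By line, Gli2 changed by -0.67 (female) and -3.25 (male). Against Epi alone, 0 of 4 were called, beside 24.5% of all genes (21.9% higher and 2.60% lower), and 0 had an unadjusted p under 0.05, against 6242 of the 15504 genes. The Ptch1 value there depended on the Epi reference and on scaling. It was 0.57 (adjusted p = 0.458) as first fitted and -0.41 after upper-quartile scaling. With the 7-passage culture in place of the first female Epi culture it was 1.22 (adjusted p = 0.0264, a call). That culture was normalised in a separate table. These contrasts share the motor neuron cultures and their values are not independent.

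Between the states without SAG, 0 of 4 members were called as well, where 0.0387% (Epi against serum) and 0.0193% (serum against 2i) of all genes were. At an unadjusted p under 0.05 there were 0 members, against 1000 and 1549 of the 15504 genes. The largest estimates were a Gli2 change of -1.53 (SE 0.79) and a Smo change of 1.04 (SE 0.68) from serum to Epi, with adjusted p-values of 0.727 and 0.731. From serum to Epi, Smo was higher in both lines (0.64 and 1.45) and Gli2 lower in both (-1.18 and -1.87).

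**Figure D3:**
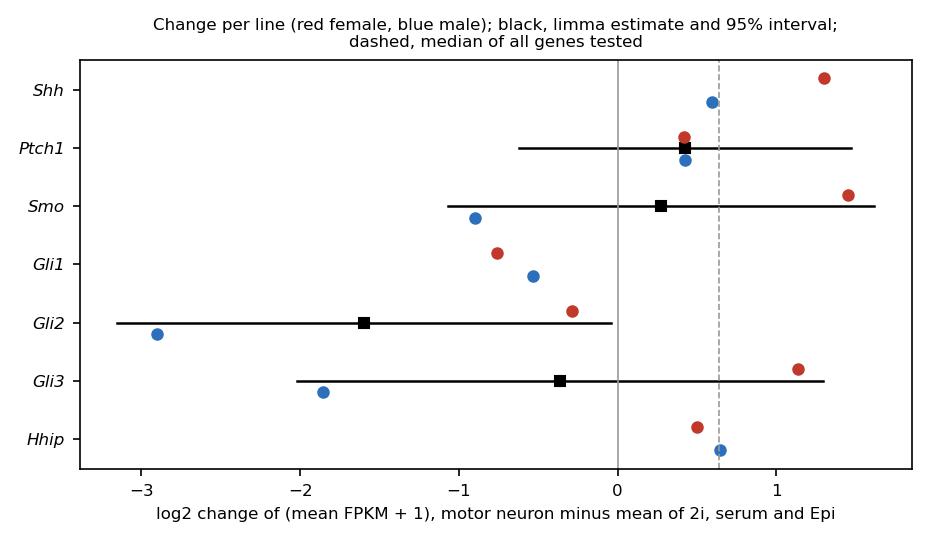
Log2 change of (mean FPKM + 1) from the mean of 2i, serum and Epi to the motor neuron culture (horizontal axis) for each member (vertical axis), with red points for the female line, blue points for the male line, and black squares and lines for the limma estimate and its 95% interval where a gene was tested. Smo and Gli3 lie on opposite sides of 0 in the 2 lines (1.45 against -0.90 and 1.13 against -1.86), and both Ptch1 points lie near 0.42.

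The 2 motor neuron cultures differed in their cells as well as in these genes. Each line made 1 such culture, so line, sex and differentiation run cannot be told apart. Members at 1 FPKM or more averaged 2.36 of 7 per female and 0.943 per male motor neuron cell, where 4 of 39 and 12 of 35 cells had none. The other cultures averaged 2.59 to 3.29. Beside this, pluripotency markers summed to 856 FPKM in the female and 19.6 in the male culture, mesenchyme markers to 107.9 and 32.8, neuron markers to 3365 and 7952, and endoderm markers to 262.5 and 1093. The part of these cell types in the line difference was not tested at the level of cultures, and the clusters below give the members within them.

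Clustering of the 74 motor neuron cells without the members and the other pathway genes gave 3 clusters, which are described and not tested, since both cultures feed each of them. The first, of 30 cells (13 female and 17 male), was endoderm-like by 7 of 9 markers and was led by Gkn1, Gkn2 and Cyp26a1, with Ttr and the immune-linked Ccl17 and Srgn among its first 10 genes. The third, of 21 cells (7 and 14), was neuron-like by 8 of 8 markers, a count shared with the second cluster (5 of 8 in the first). Summed neuron markers set it apart, at 17100 FPKM against 1888 in the second and 234.6 in the first. The third was led by Uts2b, AY761184 and Tac1, with the chemokine receptor Ackr1 also among its first 10. Of 9 endoderm markers, 4 (Sox17, Gata4, Gata6 and Dab2) were at 1 FPKM or more in at least 25% of its cells. Of 7 motor neuron markers, 3 (Isl1, Slc18a3 and Chat) were at 1 FPKM or more in at least 25% of its cells. For 10 spinal interneuron markers that count was 0. The second, of 23 cells (19 female and 4 male), was led by Dcn, Krtdap and Pou5f1, carried neuron, mesenchyme and pluripotency markers together, and stays unnamed. No doublet caller was run, and pairs of cells were not tested for.

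Ptch1 was detected at about the same level in all 3 clusters. Its mean was 6.77 FPKM in the endoderm-like, 6.09 in the unnamed and 7.38 in the neuron-like cluster, and 20 of 30, 14 of 23 and 15 of 21 cells reached 1 FPKM. Neuron-like cells did not stand apart from the others in this gene.

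The other members were found mostly in the unnamed cluster. Gli1 was at 1 FPKM or more in 0 of 30, 2 of 23 and 0 of 21 cells, Gli2 in 0, 9 and 2, and Hhip in 0, 5 and 1. Gli3 was present in 4, 15 and 2 cells, and Smo in 10, 15 and 3. So 15 of 23 cells of the unnamed cluster had Smo (65.2%, 42.7 to 83.6%) against 3 of 21 neuron-like cells (14.3%, 3.05 to 36.3%). Shh was listed at 0 in all 30 endoderm-like cells and reached 1 FPKM in 5 of 23 and 3 of 21 of the others. The 14 and 9 cells into which the unnamed cluster split with 4 clusters differed in some of these genes. The 14 were 10 female and 4 male cells and the 9 were all female, so the split also differed by culture. Pluripotency markers summed to 287.98 FPKM in the 14 cells and to 2604 in the 9, which were led by Krtdap, Tdgf1 and Nodal. Gli2 was present in 3 of the 14 and 6 of the 9 cells, Gli3 in 7 and 8, Smo in 9 and 6, and Hhip in 3 and 2. Gli1 was present in 1 and 1, and Shh in 5 and 0, where 3 of the 5 were male.

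Within clusters the lines were as follows. Among endoderm-like cells Smo was present in 8 of 13 female and 2 of 17 male cells, and Gli3 in 4 of 13 and 0 of 17. Among neuron-like cells Smo was present in the same share of both (1 of 7 and 2 of 14), and Gli2 in 2 of 7 and 0 of 14. The low Smo and Gli3 values of the male culture were seen within the endoderm-like cluster too, beside its few cells (4) in the unnamed one.

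**Figure D4:**
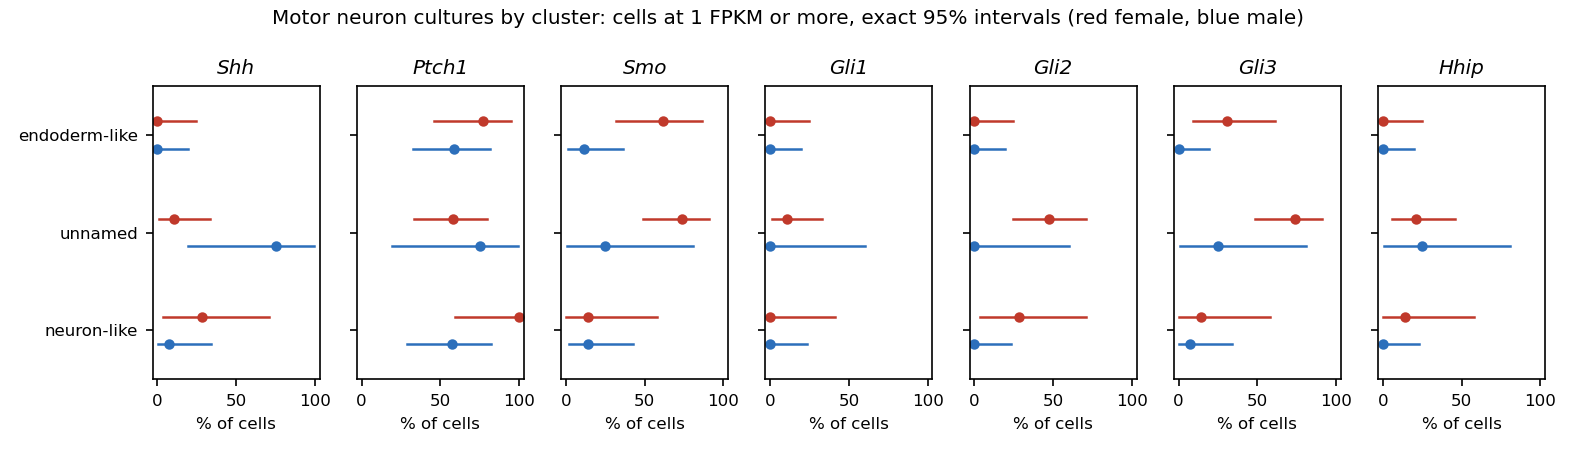
Percent of motor neuron culture cells at 1 FPKM or more (horizontal axis) in each cluster (vertical axis), with red points for female and blue points for male cells and lines for exact 95% binomial intervals. Ptch1 is found in all clusters, Shh and Hhip are absent from the 30 endoderm-like cells, and Gli2 is absent from all male cells.

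Within single cells, most Gli1-positive cells of the ES and Epi cultures also had Ptch1, as did most cells of each culture except male Epi. All 38 female Epi cells with Gli1 also had Ptch1, where 68 of 79 cells had Ptch1. In serum 18 of 21 female and 10 of 11 male Gli1 cells had Ptch1, beside 52 of 68 and 43 of 52 of all cells. In male Epi 4 of 7 did, beside 25 of 63 of all cells. In the female motor neuron culture neither of the 2 Gli1 cells had Ptch1, although 28 of 39 cells did. Shh and Ptch1 were found together in 4 of 4 female and 3 of 4 male Shh-positive motor neuron cells, where 28 of 39 and 21 of 35 of all cells had Ptch1. Cells of 1 culture are not replicates, and these counts are descriptions.

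The other genes of the pathway were called about as often as genes of the whole table. Of 45 genes in 7 lists, 35 were tested, and in motor neuron cultures against the mean of the other states 13 were called higher and 0 lower, beside 31.9% and 3.57% of all genes. Their median change was 0.78 and that of all genes 0.64. Of the 13, 5 (Ihh, Scube1, Scube2, Lrp2 and Nkx6-1) averaged under 1 FPKM over the 6 other cultures and passed the filter only through the motor neuron cultures, as did 1125 of the 4951 genes called higher in all, so their calls are no support for a change of the lists. These 13 kept their higher direction in every alternative in which they were tested. Called in every such alternative were Ihh, Scube2, Gsk3b, Kif3a and Foxa2, while 6 of 12 were called after rescaling of cells and 6 of 12 after upper-quartile scaling. Lrp2, Spop, Stk36, Nkx2-9 and Ccnd2 were not called under either of these scalings or with the mean of log2 values. Scube1 was not called after rescaling, Prkaca after upper-quartile scaling and Nkx6-1 with the mean of log2 values.

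Among ligands and the proteins that release them, 3 of 6 tested genes rose, beside 31.9% of all genes called higher. All 3 passed the filter only through the motor neuron cultures. For the lists below the share over all genes is the same 31.9%. Ihh, the Hedgehog ligand known from endoderm and cartilage, was at 8.96 and 5.29 FPKM in the female and male motor neuron cultures and at 0 to 0.422 FPKM in the others of that table. It rose by 2.78 (SE 0.31, limma adjusted p = 0.00147). By cluster, 18 of 30 endoderm-like cells, 2 of 23 unnamed and 0 of 21 neuron-like cells had Ihh. Scube2, which helps release Hedgehog ligands from cells, rose by 3.11 (SE 0.60, adjusted p = 0.00827), and 24 of 30 endoderm-like cells had it. Its relative Scube1 rose by 2.19 (SE 0.56, adjusted p = 0.0220), and 16 of 21 neuron-like cells had it. Dhh, the third ligand, was not tested, at 0.874 and 0.316 FPKM.

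Among other receptors and co-receptors 1 of 3 rose, Lrp2, a large endocytic receptor, by 1.60 (SE 0.39, adjusted p = 0.0190), and it was present in 21 of 30 endoderm-like cells. Lrp2 passed the filter only through the motor neuron cultures, with 0.879 FPKM over the 6 others. The ligand co-receptors Gas1 and Boc were at 1 FPKM or more in 0 of 21 neuron-like cells. In the unnamed cluster 5 and 9 of 23 cells had them.

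In the signal relay 4 of 10 rose: Gsk3b (2.93, SE 0.29, adjusted p = 0.00114) and Prkaca (2.13, SE 0.27, adjusted p = 0.00209), kinases that phosphorylate Gli proteins, and Stk36 (1.54, SE 0.36, adjusted p = 0.0152) and Spop (1.44, SE 0.45, adjusted p = 0.0427). Spop was called in 6 of 18 alternatives, with estimates down to 0.31 and adjusted p up to 0.531, and Stk36 in 11 of 17. Gsk3b and Prkaca also act outside this pathway. The negative regulators Sufu (0.12, SE 0.39) and Kif7 (0.07, SE 0.35) were not called. Of 6 cilium genes 1 rose, the motor subunit Kif3a, by 2.86 (SE 0.27, adjusted p = 0.00105), and Kif3a also serves transport in axons.

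Among ventral neural tube genes that Shh induces, 3 of 5 rose. Foxa2 was at 39.9 and 57.7 FPKM in the motor neuron cultures and at 0 to 11.8 FPKM in the other 6, a change of 4.87 (SE 0.80, adjusted p = 0.00469). All 30 endoderm-like cells had Foxa2, against 14 of 23 unnamed and 8 of 21 neuron-like cells, with means of 97.7, 23.8 and 4.59 FPKM. Nkx6-1, a motor neuron progenitor factor, rose by 2.03 (SE 0.40, adjusted p = 0.00849) and was present in 3 of 30, 7 of 23 and 13 of 21 cells. Nkx6-1 passed the filter only through the motor neuron cultures, with 0.164 FPKM over the other 6. Nkx2-9 rose by 2.30 (SE 0.71, adjusted p = 0.0398) and was present in 11, 17 and 5 cells. Nkx2-2, below the filter, was at 2.87 and 2.35 FPKM and at most 0.0637 FPKM in the other cultures. Olig2, the motor neuron progenitor factor, was at 0.172 FPKM in the female and 0 in the male motor neuron culture, a change of -1.03 (SE 0.56, adjusted p = 0.180).

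Of 2 tested genes that Shh represses in the neural tube, 0 were called, Pax6 at -0.63 (SE 0.42, adjusted p = 0.259) and Msx1 at -0.87 (SE 1.25, adjusted p = 0.593). Among other targets 1 of 3 rose, the cyclin gene Ccnd2, by 3.23 (SE 0.93, adjusted p = 0.0324), and its values were 102.4 FPKM in the female and 18.5 in the male motor neuron culture. The cyclin gene Ccnd1 changed by -1.30 (SE 0.43) and just missed the threshold (adjusted p = 0.0501). Against serum alone 10 of 35 list genes were called, beside 32.8% of all genes, and against Epi alone 8 of 35, beside 24.5%, all higher. Between the other states 0 of 35 were called.

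**Figure D5:**
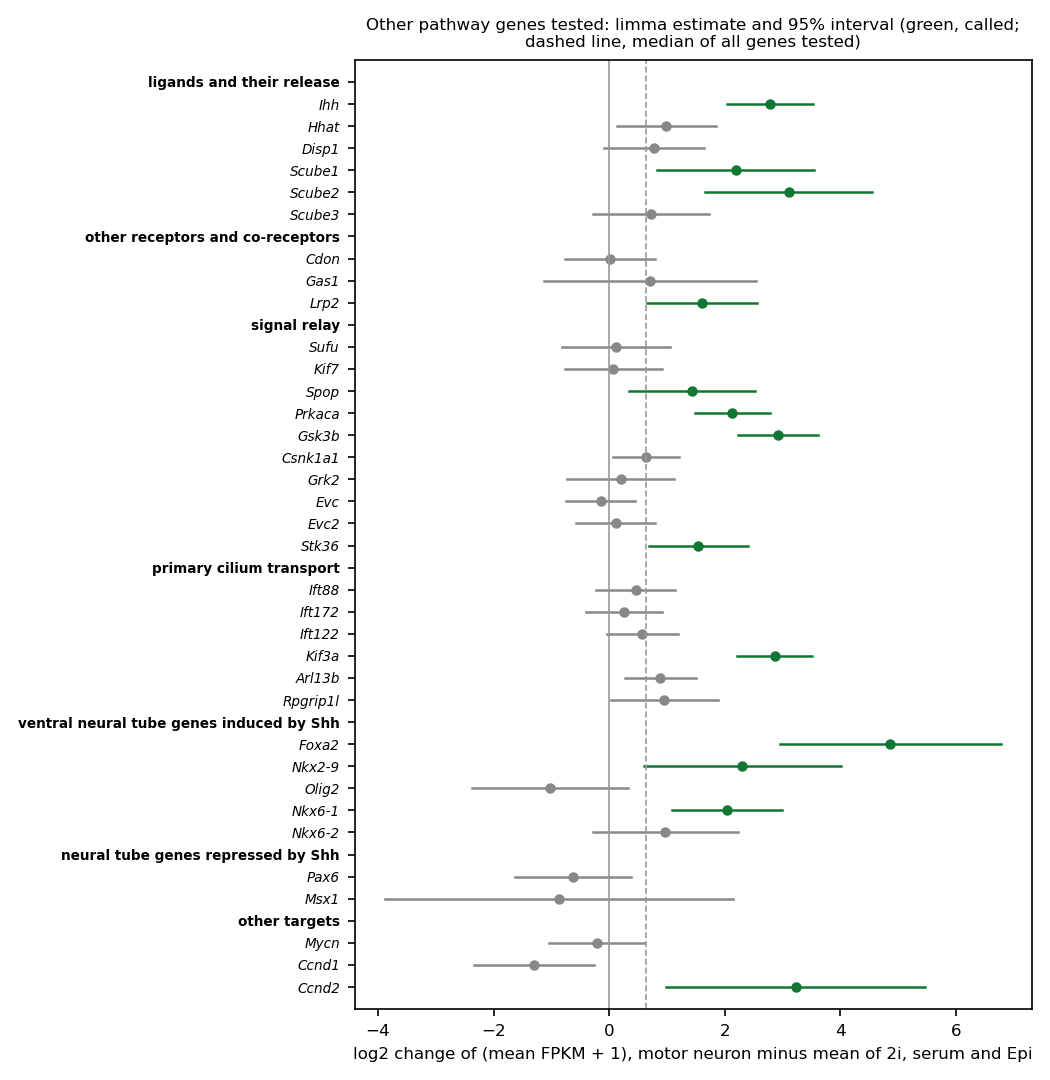
Log2 change of (mean FPKM + 1) from the mean of 2i, serum and Epi to the motor neuron cultures (horizontal axis) for the 35 other pathway genes tested, grouped by role, with points for the limma estimate and lines for its 95% interval (green, called; the dashed line is the median of all genes tested, 0.64). All 13 called genes lie to the right of 0, with Foxa2 farthest at 4.87.

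The E3.5 and E4.5 cells share 1 table and the E5.5 cells another, each normalised apart from the cultures. Each embryo group was treated as 1 sample, and the values are given side by side without a test. Before implantation the members were near 0: Ptch1 was at 1.22 FPKM at E3.5 and 0.858 at E4.5, and the other 6 members were at 0.123 FPKM or less in both. At most 1 member per cell was at 1 FPKM or more. At E5.5 Smo stood at 5.38 (female) and 5.70 (male) FPKM in 20 of 20 and 58 of 63 cells, Ptch1 at 2.27 and 3.66, Gli3 at 1.81 and 2.54 and Gli2 at 1.55 and 1.87. Gli1 reached 1 FPKM in 4 of 20 and 8 of 63 cells. E5.5 cells held 2.90 and 3.29 members per cell on average. These levels come with the endoderm markers of the same cells given above, whose part was not tested.

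For each member that was tested, the 2 genes with the most similar pattern were found by Pearson r of log2(mean FPKM + 1) over the 8 cultures among 15500 genes. They were Ubxn1 (r = 0.955) and Lyrm7 (0.954) for Ptch1, Cd40 (0.979) and Fzd2 (0.974) for Smo, E2f2 (0.965) and Sf3b5 (0.959) for Gli2, and Gm17364 (0.953) and Ythdf1 (0.947) for Gli3. The cultures share a table and its normalisation, and with 8 points and this many genes high values are found for most patterns. Fzd2, a Wnt receptor, had 8.27 FPKM in the female and 0.957 in the male motor neuron culture.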

How the data were processed

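The members were given by symbol, and they and the gene lists were chosen with earlier results of these data known. Values are FPKM of single cells as deposited, in 4 tables that the authors normalised separately. STAR 2.4.1, Cufflinks, Cuffnorm 2.2.1 and mm10 are named per the submitters' processing notes; their order and settings, the annotation, strandedness and cell filters are not given in the sources used here. Symbols came from GENCODE vM21 for 42462 of 43628 IDs. In 356 values the exponent had a low line for the minus sign (read as small numbers, at most 9.7552e-05 FPKM).

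A culture was the mean FPKM of its cells. The 8 cultures of 1 table entered a limma 3.58.1 fit (R 4.3.3, trend) on log2(mean FPKM + 1), genes at a mean of 1 FPKM or more, 1 coefficient per state, 4 residual degrees of freedom, checked on simulated data. Replicates are 1 female and 1 male line, so p-values measure the spread between lines. Lines pair the samples by the labels. Differences between the lines had an r between pairs of states of 0.0605 to 0.163 across 15504 genes, which are not independent. Motor neuron cells were clustered by Ward linkage on 10 principal components of 1000 variable genes. An item left out of the lists is not reported here. Named genes were the members, called list genes and a few more per list, and 2 pattern neighbours per tested member. Alternatives were the pseudocount, filters, scalings, mean of logs, line block, each culture left out, the 7-passage culture, cell subsets by title number, thresholds and cluster numbers.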

Additional observations from a re-analysis of the deposited data

Results flagged for a closer look

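In some comparisons the 2 lines moved in opposite directions, each line with 1 culture per state, so the differences were not tested. All values are on the log2(mean FPKM + 1) scale, and the difference is the female change minus the male change.

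From the mean of the other states to the motor neuron culture, Smo changed by 1.45 in the female and -0.90 in the male line (difference 2.35), and Gli3 by 1.13 and -1.86 (difference 2.99). Against serum, Smo changed by 1.42 and -0.80 (2.22), Gli3 by 1.15 and -1.43 (2.58) and Ptch1 by 0.79 and -0.01 (0.80). Against Epi, Smo changed by 0.78 and -2.25 (3.03), Gli2 by 0.52 and -1.38 (1.90) and Gli3 by 0.74 and -2.75 (3.49). These comparisons share the motor neuron cultures.

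From serum to Epi, Ptch1 changed by 0.78 in the female and -1.15 in the male line (1.93), Gli1 by 1.01 and -0.21 (1.22) and Shh by -0.05 and 0.15 (-0.21). From 2i to serum, Ptch1 changed by -0.32 and 0.17 (-0.49) and Shh by 0.05 and -0.22 (0.27). Both Shh values rest on culture means of 0.170 FPKM or less.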

How the results depend on the processing

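For motor neuron cultures against the mean of the other states, 4951 genes (31.9% of those tested) were called higher and 553 (3.57%) lower. The higher share was 13.5% (4577 genes) without a filter, 17.2% (2668) with the mean of log2 values over cells, 16.4% (2510) with each cell rescaled to the same sum and 11.1% (1727) with upper-quartile scaling, and 3291 genes were higher with a filter at 5 FPKM. The lower share was 0.995% (337 genes) without a filter, 7.90% (1225) with the mean of log2 values, 8.33% (1272) with rescaled cells, 17.3% (2685) with upper-quartile scaling and 2.24% (without the male motor neuron culture) to 6.30% (without the male Epi culture) over single cultures left out. Members called were 0 as first fitted, 1 with the mean of log2 values, 1 with upper-quartile scaling and 0 to 2 with 1 culture left out. Against serum they were 1 with the mean of log2 values and 0 to 2 with 1 culture left out, and against Epi 1 with the 7-passage culture and 0 to 1 with 1 culture left out. The line as a replicate block (paired fit) gave 5071 genes higher, 608 lower and 0 members called, and changed no call of a member. Where a culture was left out, the lone culture of that state is assumed to vary like the others.

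Estimates of members that were not called changed sign as follows. With rescaled cells Ptch1 was -0.14 against the mean, -0.16 against serum, -0.092 against Epi and 0.000702 from 2i to serum, and Smo was -0.10 against the mean and -0.040 against serum. With upper-quartile scaling Ptch1 was -0.54, -0.57 and -0.41 in the 3 motor neuron contrasts, and Smo -0.32 against the mean and -0.31 against serum. With cells of the higher title numbers (the titles run in 2 blocks that the labels do not explain) Gli3 was 0.034 against serum and -0.14 from 2i to serum, and Ptch1 0.012 from 2i to serum. With cells of the lower title numbers Gli2 was 0.061 against Epi. Over single cultures left out, Smo ranged from -0.64 to 1.19 and Gli3 from -1.74 to 1.01 against the mean, Smo from -0.61 to 1.23 and Gli3 from -1.52 to 1.23 against serum, and Ptch1 from -0.22 to 1.36, Smo from -1.66 to 0.18, Gli2 from -1.67 to 0.80 and Gli3 from -2.38 to 0.37 against Epi. They ranged from -0.98 to 0.61 for Ptch1 from serum to Epi, and from 2i to serum from -0.25 to 0.10 for Ptch1 and -0.89 to 0.015 for Gli2. The cause of these changes was not tested. Among the shares of cells by group, 87 stayed within the interval of the 1 FPKM share at thresholds of 0.1 and 5 FPKM and 95 did not. Of the 28 shares in the endoderm-like and neuron-like clusters, 26 stayed within their interval with 2 or 4 clusters. The unnamed cluster was not scored in this way. Read depth limits the values below 1 FPKM.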
